A study of Homo sapiens with 6 samples.

Results

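The genes described here are 39 genes of sterol and fatty acid synthesis and of its control by the sterol regulatory element binding proteins (SREBPs), taken from a list of names and matched to their Entrez identifiers. All 39 were found among the 28395 gene identifiers of the count table. They comprise 8 enzymes of the mevalonate pathway, 11 enzymes from squalene synthase onward to cholesterol, 8 regulators, 5 genes of sterol transport and esterification, and 7 genes of fatty acid synthesis. RNA-seq was done on 6 libraries of cells from a human breast cancer of the triple-negative kind, 3 of the parental MDA-MB-468 (control) and 3 of MDA-MB-468-PR (resistant), a derivative made in the submitters' laboratory by keeping the parental cells in 3 to 4.5 nM paclitaxel, a microtubule-stabilising drug, for 2 months. The labels give all 6 samples as untreated, and both lines grew in high-glucose DMEM with heat-inactivated serum, itself a source of cholesterol. Replicate 1 of each line belongs to a 2020 batch and replicates 2 and 3 of each line to a 2021 batch. The resistant libraries all come from 1 derivative, so drug exposure and any other event in its derivation cannot be told apart.

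Cells build cholesterol from acetyl-CoA through the mevalonate pathway, which also yields the isoprenoids that anchor proteins to membranes, and then through squalene and lanosterol. When sterols in the endoplasmic reticulum are scarce, SCAP carries the SREBPs to the Golgi, where they are cleaved, and the freed fragment enters the nucleus and switches on these genes. SREBF2 encodes the form that acts mainly on sterol genes and SREBF1 the form best known for fatty acid genes. When sterols are plentiful, INSIG proteins hold SCAP back, and oxysterols activate the liver X receptors (LXRs), which drive sterol export and transcribe SREBF1.

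Total counts ran from 41343499 to 66475627 in control and from 37889818 to 93680129 in resistant libraries, so that 3 counts, the upper limit behind a count of 0, stood for 0.0312 to 0.0808 CPM (counts relative to the library size as scaled by TMM). All 5 epithelial markers (EPCAM, KRT8, KRT18, KRT19, CDH1) were tested and none was called between the lines, with a summed level of 5275 to 6999 CPM in control and 5487 to 5804 CPM in the resistant line. The 5 leukocyte markers summed to 8.64 to 21 CPM in control and 12.1 to 18.9 CPM in resistant libraries, mostly CD14 (6.51 to 18.7 CPM in a library). The 5 fibroblast markers summed to 24.8 to 30.9 and 23.8 to 28.5 CPM, mostly COL1A1, with LUM at 0 counts in every library. The 5 endothelial markers summed to 9.58 to 26 and 15.8 to 66.2 CPM, mostly KDR. PTPRC, the pan-leukocyte marker, had 1 to 7 counts in a library. None of the markers that could be tested was called. In bulk RNA, fewer cells of a type and less RNA per cell cannot be told apart. Nothing in the labels shows that replicates are independent cultures, and the p-values therefore reflect only how much these libraries vary, perhaps for technical reasons.

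In the resistant line, 13 of the 19 enzymes of cholesterol synthesis fell, up to 2.24-fold for EBP, while 3 of the 6 tested fatty acid genes rose, up to 2.25-fold for FADS1. INSIG1, the sterol sensor's anchor, fell too, and no gene of sterol transport was called. Of the 39 genes, 37 passed the filter on low counts and were tested. By the quasi-likelihood test of edgeR, with line and batch in the model and Benjamini-Hochberg adjustment over all 13950 tested genes, 15 of the 37 fell (40.5%), 3 rose (8.11%) and 19 did not pass the threshold of an adjusted p under 0.05. Over all tested genes 5.48% were called lower, 6.23% higher and 11.7% in either direction. The 39 genes were chosen with earlier results of these data known. The gap between these shares is therefore a description and no test of the group. The fitted log2 difference, resistant minus control, was below 0 for 34 of the 37, with a median of -0.39, against -0.00 over all tested genes, of which 10% had a difference at or below the median of the 37. All 3 resistant libraries lay below all 3 control libraries for 17 of the 37 (45.9%) and above them for 3 (8.11%), against 10.2% and 10.7% of all tested genes. The count of 15 was 8 without resistant replicate 1, 7 without resistant replicate 2 and 5 without resistant replicate 3. In those fits 3.14%, 2.88% and 1.98% of all tested genes were called lower, beside 21.6%, 18.9% and 13.5% of the 37. Without control replicate 1, 2 or 3 the count was 11, 17 and 14, beside 3.45%, 5.56% and 7.06% of all tested genes. With no batch term it was 3, beside 1.18% of all genes, and in the 2021 libraries alone 9, beside 3.18%.

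**Figure D1:**
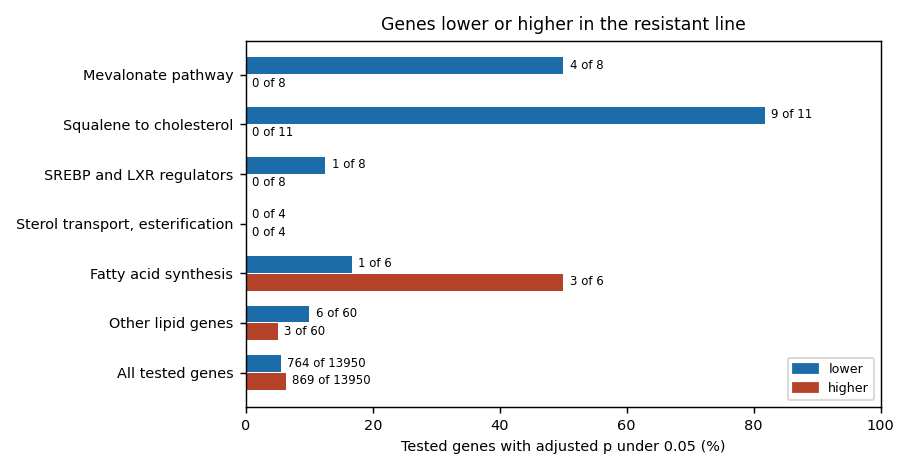
Share of tested genes (%, linear axis from 0) with an adjusted p under 0.05 that were lower (blue) or higher (red) in the resistant line, for the 5 groups of the 39 genes, 60 other tested lipid genes, and all 13950 tested genes. Most lower calls stand in the enzymes of cholesterol synthesis, 4 of 8 and 9 of 11, and the higher calls in the fatty acid group, 3 of 6.

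SREBPs bind the sterol regulatory element, whose classic form is searched here as TCACNCCAC on either strand, usually beside a site for NF-Y, the factor that binds CCAAT, which reads ATTGG on the other strand. The 250 bases before the transcription start were taken from RefSeq (GRCh38.p14) for the 35 of the 39 genes whose promoter the table holds. TCACNCCAC was found in 1 of the 35, SREBF2, against 0.875% of all 27305 promoters of the same length. CCAAT was found in 21 of the 35 (60%), against 33% of all promoters and 35% of those of tested genes. It was present in 12 of 16 enzymes of cholesterol synthesis (75%), in 10 of the 13 genes that fell and have a promoter in the table (76.9%), in 10 of the 17 tested but not called (58.8%) and in 0 of the 3 that rose. A match describes letters and is not a binding site, and the lack of one says only that these letters are not in this window. Printed below are the promoter with the element and those of LSS, HMGCS1 and INSIG1, the genes in the table with the largest falls whose windows leave 100 bases or more outside annotated untranslated exons, chosen after their values were seen. Capitals mark TCACNCCAC and CCAAT on either strand. Positions are SREBF2 chr22:41832855-41833078 (plus strand), LSS chr21:46228825-46229024 (minus), HMGCS1 chr5:43313513-43313662 (minus) and INSIG1 chr7:155297628-155297775 (plus), on GRCh38.p14.
SREBF2: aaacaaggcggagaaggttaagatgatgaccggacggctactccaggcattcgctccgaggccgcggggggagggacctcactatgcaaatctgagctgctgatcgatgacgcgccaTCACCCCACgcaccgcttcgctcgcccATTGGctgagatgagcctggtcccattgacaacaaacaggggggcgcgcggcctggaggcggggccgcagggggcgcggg
LSS: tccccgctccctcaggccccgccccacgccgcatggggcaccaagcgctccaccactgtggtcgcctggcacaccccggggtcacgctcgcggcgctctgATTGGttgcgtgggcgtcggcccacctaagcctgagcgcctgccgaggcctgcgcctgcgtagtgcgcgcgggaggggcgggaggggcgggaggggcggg
HMGCS1: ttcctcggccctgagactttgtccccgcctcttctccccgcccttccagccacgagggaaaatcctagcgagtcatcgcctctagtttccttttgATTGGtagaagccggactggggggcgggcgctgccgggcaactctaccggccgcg
INSIG1: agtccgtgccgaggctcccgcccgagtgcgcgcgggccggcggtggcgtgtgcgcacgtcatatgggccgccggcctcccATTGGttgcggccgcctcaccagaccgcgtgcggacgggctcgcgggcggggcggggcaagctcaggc
In SREBF2 the element lies 133 to 125 bases before the start, followed by ATTGG at 106 to 102 bases.

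The mevalonate pathway turns acetyl-CoA into farnesyl and geranylgeranyl diphosphate. Of its 8 enzymes, 4 fell (HMGCS1, MVD, IDI1 and GGPS1) and 4 did not pass the test. All 8 had a difference below 0, with a median log2 difference of -0.51, and in all 8 the resistant libraries lay below the control libraries. Of all tested genes 5.48% were called lower and 10.2% had every resistant library below the control libraries. HMGCS1 (chr5:43287470-43313412) makes HMG-CoA. Its level was 200, 204 and 180 CPM in control replicates 1 to 3 and 124, 123 and 111 CPM in resistant replicates 1 to 3. The groups did not overlap and were nearly level within themselves in both batches. The log2 difference was -0.71 ± 0.10 (SE), a 1.64-fold lower level (adjusted p = 0.00408), and it was -0.69 within 2020 and -0.72 within 2021.

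MVD (chr16:88651940-88663091) removes the carboxyl group of mevalonate diphosphate to give isopentenyl diphosphate. It was counted at 246, 381 and 349 CPM in control and at 184, 237 and 200 CPM in resistant libraries. The groups were separated, by only a small gap between control replicate 1 and resistant replicate 2, which are of different batches. The fitted log2 difference was -0.64 ± 0.12 (SE; adjusted p = 0.0128). IDI1 (chr10:1039152-1056704) interconverts the isoprene units. It stood at 143, 105 and 117 CPM in control and at 94.1, 76.1 and 77.3 CPM in resistant libraries. Replicate 1 was the highest of its group in both lines, and the groups were separated. On the log2 scale it differed by -0.56 ± 0.09 (SE; adjusted p = 0.0073).

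GGPS1 (chr1:235327216-235344532) makes the geranylgeranyl diphosphate used to prenylate small GTPases. Its values were 82.5, 66.2 and 65.7 CPM in control and 52.3, 45.7 and 47.2 CPM in the resistant line. Replicate 1 was again the highest of each line, without overlap between the lines. The fit gave a log2 difference of -0.56 ± 0.09 (SE; adjusted p = 0.00561). GGPS1 shares 964 bases with ARID4B, whose reads the counting may exchange with it, and its 20 nearest tested neighbours had a median log2 difference of -0.31. The calls of HMGCS1 and GGPS1 held in each fit that left out 1 library. MVD did not pass without resistant replicate 3 (adjusted p = 0.0673), nor IDI1 without resistant replicate 1 (adjusted p = 0.0532).

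The 4 enzymes without a call were ACAT2, which joins acetyl-CoA units (322 ± 34 CPM in control and 245 ± 32.4 CPM in the resistant line, SD, n = 3; edgeR adjusted p = 0.0689), MVK, the mevalonate kinase (52.5 ± 12.6 and 37.8 ± 2.3 CPM; edgeR adjusted p = 0.0511), PMVK, the kinase of the next step, and FDPS, which makes farnesyl diphosphate (639 ± 34.4 and 489 ± 78.1 CPM; edgeR adjusted p = 0.0953). PMVK differed least, by -0.17 ± 0.10 (SE) on the log2 scale. MVK passed in 6 of 16 alternative fits. Per kilobase of coding sequence, FDPS had the highest level in control cells at 508 CPM, then MVD at 271 and ACAT2 at 270, and MVK the lowest at 40. RNA was captured with exome probes, and capture was not compared between genes. Rankings of genes by level, here and below, therefore describe counts only. ACAT2 shares 615 bases with TCP1, and reads from there may be exchanged.

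Of the 11 enzymes that lead from farnesyl diphosphate through squalene and lanosterol to cholesterol, 9 fell and 2, TM7SF2 and HSD17B7, did not pass the test. All 11 differences were below 0, with a median of -0.50. For 6 of the 11 (54.5%) all resistant libraries lay below all control libraries, beside 10.2% of all tested genes. Of all tested genes 5.48% were called lower. EBP had the largest fall of all 37 tested genes. EBP (chrX:48521808-48528716), the sterol isomerase that shifts a double bond in the ring system, stood at 159, 192 and 172 CPM in control and at 80.9, 84.5 and 67.6 CPM in resistant libraries. Every resistant library was well below the lowest control library. The log2 difference was -1.17 ± 0.12 (SE), a 2.24-fold lower level (adjusted p = 0.00164). The 20 nearest tested neighbours of EBP had a median log2 difference of -0.72, and 12 of them were called lower, so its fall stands among neighbours most of which fell too.

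FDFT1, squalene synthase, opens the branch that is committed to sterols. Its level was 563, 652 and 549 CPM in control and 422, 317 and 309 CPM in the resistant line. The groups were separated, and resistant replicate 1, of 2020, was the closest to the controls. The fitted log2 difference was -0.76 ± 0.14 (SE; adjusted p = 0.011), -0.42 within 2020 and -0.93 within 2021. LSS (chr21:46188446-46228774) closes the rings of lanosterol. It was counted at 44.6, 79 and 56.2 CPM in control and at 27.1, 40.9 and 40.1 CPM in resistant libraries. Both lines were lowest in replicate 1, and the groups did not overlap. On the log2 scale it differed by -0.73 ± 0.13 (SE; adjusted p = 0.00906), and -0.72 within each batch.

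DHCR7 (chr11:71427287-71449043), which reduces 7-dehydrocholesterol to cholesterol in the last step of one branch, had 343, 572 and 423 CPM in control and 266, 298 and 308 CPM in the resistant line. Control replicate 2 stood far above the rest, and the lowest control library still exceeded the highest resistant one. The fit gave a log2 difference of -0.60 ± 0.15 (SE; adjusted p = 0.0319). NSDHL (chrX:152831063-152869729) takes part in removing the methyl groups at carbon C-4. It had 209, 275 and 206 CPM in control and 166, 149 and 157 CPM in the resistant line. The resistant values were close together, and control replicate 2 was again the highest. The log2 difference was -0.55 ± 0.14 (SE; adjusted p = 0.0347), beside a median of -0.31 over its 20 neighbours.

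SC5D (chr11:121292771-121313410), the desaturase of carbon C-5, had 229, 153 and 185 CPM in control and 172, 115 and 118 CPM in the resistant line. Resistant replicate 1 exceeded control replicate 2, so the lines overlapped across batches and not within them. The fitted log2 difference was -0.50 ± 0.11 (SE; adjusted p = 0.0214). The other 3 that fell were CYP51A1, the lanosterol demethylase, MSMO1, the C-4 methyl oxidase, and SQLE, squalene epoxidase, with log2 differences of -0.48, -0.46 and -0.43 (edgeR adjusted p = 0.0199, 0.028 and 0.0367). HSD17B7, the keto-reductase of the C-4 steps, had 44.3 ± 6.56 CPM in control and 35.5 ± 5.53 CPM in the resistant line (SD, n = 3; edgeR adjusted p = 0.187). TM7SF2, a C-14 sterol reductase, had 29.2 ± 3.53 and 24.7 ± 2.8 CPM (SD, n = 3; edgeR adjusted p = 0.296).

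Of these 9 calls, that of EBP held in each fit that left out 1 library. LSS did not pass without resistant replicate 3 (adjusted p = 0.0641), FDFT1 without resistant replicate 2 or 3, and DHCR7 and NSDHL without any 1 of the 3 resistant libraries. SC5D, MSMO1, SQLE and CYP51A1 did not pass without control replicate 1 or any 1 of the resistant libraries, and SC5D, MSMO1 and SQLE did not pass without control replicate 3 either. With a block for the replicate number, NSDHL (adjusted p = 0.0511) and SQLE (adjusted p = 0.0617) did not pass.

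The 19 enzymes of both groups together summed to 4099, 4421 and 4057 CPM in control and to 3138, 2817 and 2619 CPM in the resistant line. The means were 4192 ± 199 and 2858 ± 262 CPM (SD, n = 3), and no resistant library reached the control range. The ratio of resistant to control sums was 0.765 within 2020 and 0.641 within 2021. Of the 19 enzymes, 13 fell (68.4%), beside 5.48% of all tested genes. For 14 (73.7%) all resistant libraries lay below all control libraries, beside 10.2% of all tested genes. The count of 13 was 7 without resistant replicate 1, 6 without resistant replicate 2 and 4 without resistant replicate 3. In those fits 3.14%, 2.88% and 1.98% of all tested genes were called lower. Without control replicate 1, 2 or 3 the count was 10, 13 and 11, beside 3.45%, 5.56% and 7.06% of all tested genes.

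**Figure D2:**
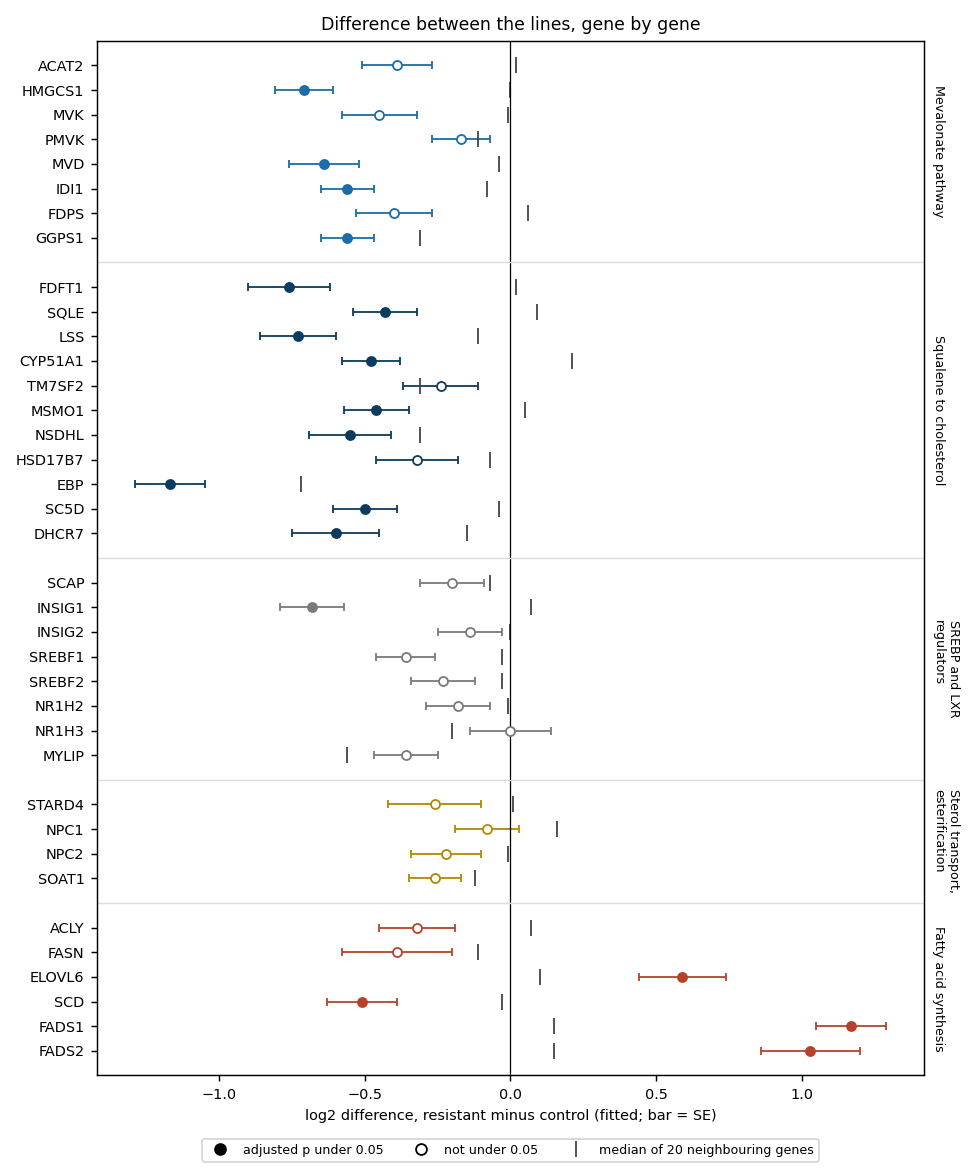
Fitted log2 difference (resistant minus control, linear axis) of each of the 37 tested genes, with its standard error as a bar, by group, and the median over its 20 nearest tested neighbours on the chromosome as a tick. Filled points passed an adjusted p under 0.05. All 19 enzymes of cholesterol synthesis lie left of 0, and FADS1, FADS2 and ELOVL6 are the only points to the right of it by more than their standard error.

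Among the 8 regulators of SREBPs and LXRs, 1 fell (12.5%, beside 5.48% of all tested genes) and 7 did not pass the test. INSIG1 (chr7:155297878-155310235), the sterol-dependent anchor of SCAP and itself a transcriptional target of SREBPs, was the one that fell. Its level was 86.1, 83 and 93.2 CPM in control and 59.5, 57.7 and 46.7 CPM in the resistant line. The lines were clearly separated, and the difference was present in both batches, at -0.53 within 2020 and -0.76 within 2021. On the log2 scale it differed by -0.68 ± 0.11 (SE), a 1.6-fold lower level (adjusted p = 0.00706), and the call held in each of 16 alternative fits. INSIG2, the second anchor, had 29.9 ± 9.57 CPM in control and 26.8 ± 7.34 CPM in the resistant line (SD, n = 3; edgeR adjusted p = 0.458).

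SREBF2 (chr22:41833105-41907305), which encodes the sterol form of SREBP, was the most abundant regulator, by CPM and per kilobase of coding sequence. It had 364, 478 and 422 CPM in control and 333, 372 and 373 CPM in the resistant line. The lines overlapped, since both resistant libraries of 2021 exceeded the control library of 2020. The fit gave a log2 difference of -0.23 ± 0.11 (SE; adjusted p = 0.237). SREBF1 had 163 ± 29.7 CPM in control and 126 ± 22.7 CPM in the resistant line (SD, n = 3), and its log2 difference of -0.36 ± 0.10 (SE) missed the threshold by little (edgeR adjusted p = 0.0504). SREBF1 passed in 3 of 16 alternative fits. The counts do not separate the SREBF1 transcripts 1a and 1c.

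SCAP, the escort of SREBPs, differed by -0.20 ± 0.11 (SE) on the log2 scale (edgeR adjusted p = 0.3). NR1H2 and NR1H3 encode the LXRs. NR1H2 had 46.3 ± 4.86 CPM in control and 40.7 ± 3.47 CPM in the resistant line (SD, n = 3; edgeR adjusted p = 0.337). NR1H3 averaged 17.2 CPM in both lines (SD 1.88 and 2.34, n = 3), with opposite differences in the batches, 0.28 within 2020 and -0.15 within 2021. MYLIP, the ubiquitin ligase that LXRs induce and that removes lipoprotein receptors, had 38.7 ± 12.7 CPM in control and 29.6 ± 6.07 CPM in the resistant line (SD, n = 3; edgeR adjusted p = 0.0724). Of its 20 nearest tested neighbours on chromosome 6, 14 were called lower and the median log2 difference was -0.56.

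None of the 4 tested genes of sterol transport and esterification was called, and their log2 differences ran from -0.26 to -0.08. NPC1 (chr18:23506184-23586506), which moves cholesterol out of lysosomes, had the highest CPM of them. Per kilobase of coding sequence NPC2 (56.1 CPM in control cells) and SOAT1 (48) stood above NPC1 (27.4). Per kilobase of all exons NPC1 came first at 20.4 CPM, then NPC2 at 15.3 and SOAT1 at 11.4 in control cells. NPC1 had 111, 109 and 94.5 CPM in control and 102, 91.2 and 105 CPM in the resistant line. The lines overlapped, and the log2 difference was -0.08 ± 0.11 (SE; adjusted p = 0.682). NPC1 shares 25639 bases with RMC1 in the annotation. SOAT1, which esterifies cholesterol for storage, had 79.2 ± 5.52 CPM in control and 66 ± 2.16 CPM in the resistant line (SD, n = 3). Its libraries did not overlap, but the difference did not pass (edgeR adjusted p = 0.101). NPC2, the lysosomal partner of NPC1, and STARD4, a cytosolic sterol carrier, differed by -0.22 ± 0.12 and -0.26 ± 0.16 (SE) on the log2 scale. NPC1L1, the sterol importer of the gut, had 0 to 6 counts in a library and was not tested.

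The fatty acid genes moved in both directions. Of the 6 tested, 3 rose (FADS1, FADS2 and ELOVL6), 1 fell (SCD) and 2, FASN and ACLY, did not pass the test. Of all tested genes 6.23% were called higher and 5.48% lower. FADS1 and FADS2 are the front-end desaturases that introduce double bonds into polyunsaturated fatty acids, and they lie next to each other. FADS1 (chr11:61799627-61817003) stood at 12.8, 18.8 and 19.6 CPM in control and at 33.7, 42.8 and 37.7 CPM in resistant libraries. Replicate 1 was the lowest in both lines, and the lowest resistant library was far above the highest control one. The log2 difference was 1.17 ± 0.12 (SE), a 2.25-fold higher level (adjusted p = 0.00124).

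FADS2 (chr11:61816203-61867354) stood at 25, 27.9 and 26.7 CPM in control and at 42.2, 74.1 and 48.8 CPM in resistant libraries. The control libraries were close together, while resistant replicate 2 was far above the other 2 resistant libraries. The fitted log2 difference was 1.03 ± 0.17 (SE), a 2.05-fold higher level (adjusted p = 0.00656). The 2 genes share 801 bases, so that reads from there cannot be assigned to either with certainty. Their 20 nearest tested neighbours had a median log2 difference of 0.15. For each gene 4 of the 20 were called higher, the other of the pair among them. Both calls held in each of 16 alternative fits.

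ELOVL6 (chr4:110045846-110199202), which elongates saturated and monounsaturated fatty acids of 16 carbons, had 8.52, 7.6 and 10.5 CPM in control and 13.5, 13.7 and 13.1 CPM in the resistant line. The resistant libraries were almost level and all above the control ones. On the log2 scale it differed by 0.59 ± 0.15 (SE; adjusted p = 0.0342). SCD (chr10:100347233-100364826), the desaturase that makes oleate from stearate, had 756, 906 and 840 CPM in control and 595, 601 and 560 CPM in the resistant line. The lines were separated, with little spread among resistant libraries. The fit gave a log2 difference of -0.51 ± 0.12 (SE), a 1.42-fold lower level (adjusted p = 0.0286). SCD did not pass with the replicate number as a block (adjusted p = 0.0508), nor without control replicate 1 or any 1 of the resistant libraries. ELOVL6 did not pass without control replicate 1, control replicate 2 or any 1 of the resistant libraries.

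FASN, fatty acid synthase, ran from 1830 to 3807 CPM in control and from 1621 to 2265 CPM in the resistant line, with the lines overlapping and control replicate 2 the highest (edgeR adjusted p = 0.247). ACLY, which supplies cytosolic acetyl-CoA, had 966 ± 161 CPM in control and 770 ± 45.8 CPM in the resistant line (SD, n = 3; edgeR adjusted p = 0.157). Per kilobase of coding sequence in control cells, SCD stood at 774 CPM, FASN at 353 and ACLY at 292, against 14.8 for FADS2, 11.2 for ELOVL6 and 11 for FADS1. By this measure the 3 genes that rose had far lower counts than the other 3. Per kilobase of all exons FASN came first at 310 CPM, then ACLY at 221 and SCD at 156.

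ACACA, acetyl-CoA carboxylase, was listed at 0 to 13 counts in a library and was not tested. The same held for its surroundings: 36 of the 40 protein-coding genes around it on chromosome 17 (90%) had at most 13 counts in every library, against 29.3% of all 19175 protein-coding genes in the table. Of the 40, 24 were at 0 in all 6 libraries, among them PSMB3, a proteasome subunit that cells in general use, and MYO19. The values of ACACA are therefore given as listed only, and no level or difference was drawn from them.

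**Figure D3:**
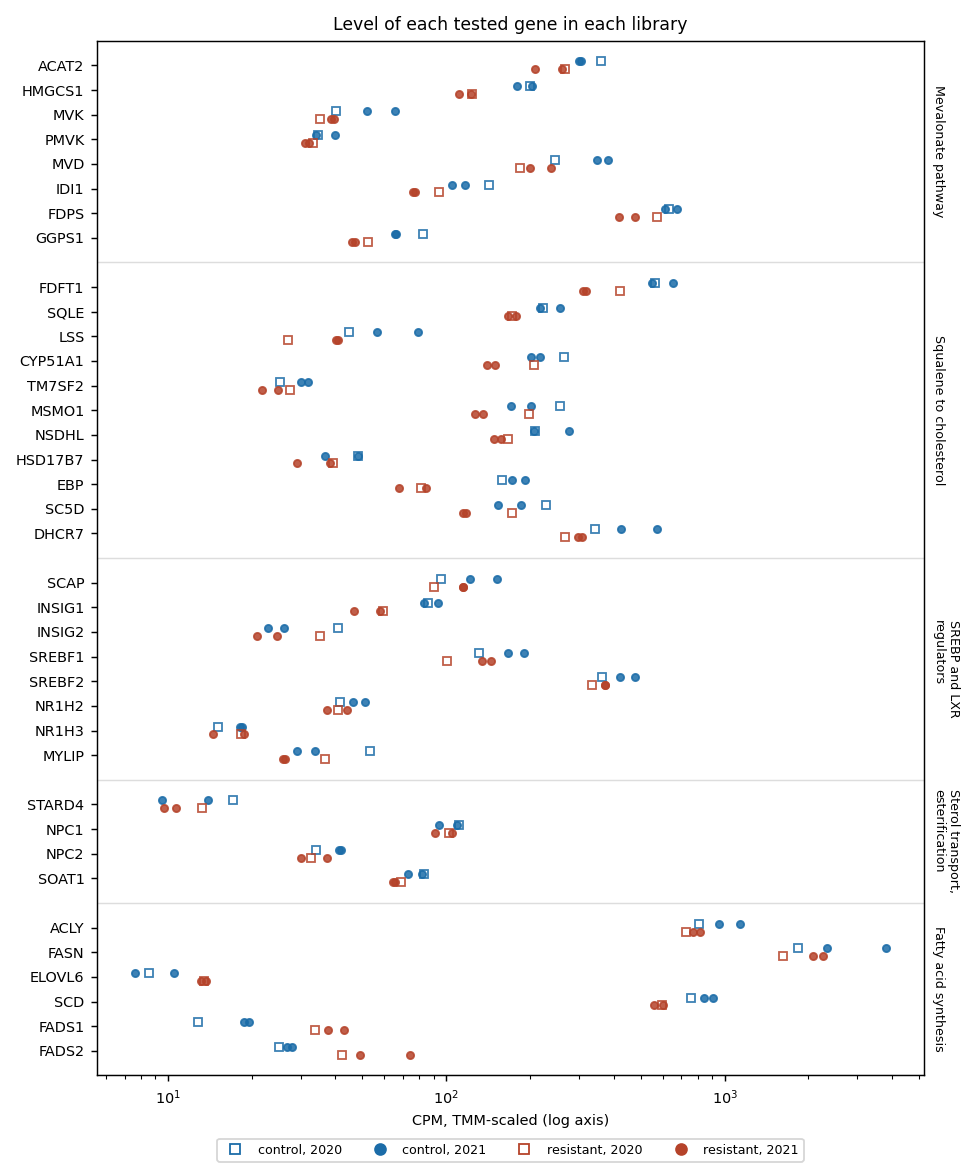
Level of each of the 37 tested genes in each library (CPM scaled by TMM, log axis), control in blue and resistant in red, with open squares for the 2020 batch and filled circles for the 2021 batch. For the 8 mevalonate enzymes every red mark lies left of every blue one, and for FADS1, FADS2 and ELOVL6 every red mark lies to the right.

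The difference between the lines was present in both batches for most of the genes. Of the 37, 32 were below 0 within 2020, where each line has 1 library, and 34 within 2021, 32 of them in both. The median was -0.34 within 2020 and -0.42 within 2021. TM7SF2 (0.12 and -0.42) and NR1H3 (0.28 and -0.15) changed sign between batches. The interaction of line and batch was called for 0% of all tested genes by edgeR, that is for 0 genes, with 187 at an unadjusted p under 0.05. DESeq2 called 2, limma voom 0 and edgeR without the filter on low counts 17. None of the 37 had an unadjusted interaction p under 0.05 in edgeR, and the lowest was 0.0708, for TM7SF2. The interaction fit had 2 residual degrees of freedom and no replicate within 2020. The lack of a call therefore does not show that the differences were equal in the batches.

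The batches themselves differed in 10 of the 37 genes (27%), near the 22.9% of all tested genes. Of the 10, 6 were lower and 4 higher in 2021. Among the 15 genes that fell in the resistant line, 5 also differed between batches, in part opposite to each other: IDI1, CYP51A1, MSMO1 and SC5D were lower in 2021 and LSS was higher. INSIG2 and MYLIP had the smallest adjusted p of the 37 for the batch, 0.00733 and 0.00921 by edgeR.

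**Figure D4:**
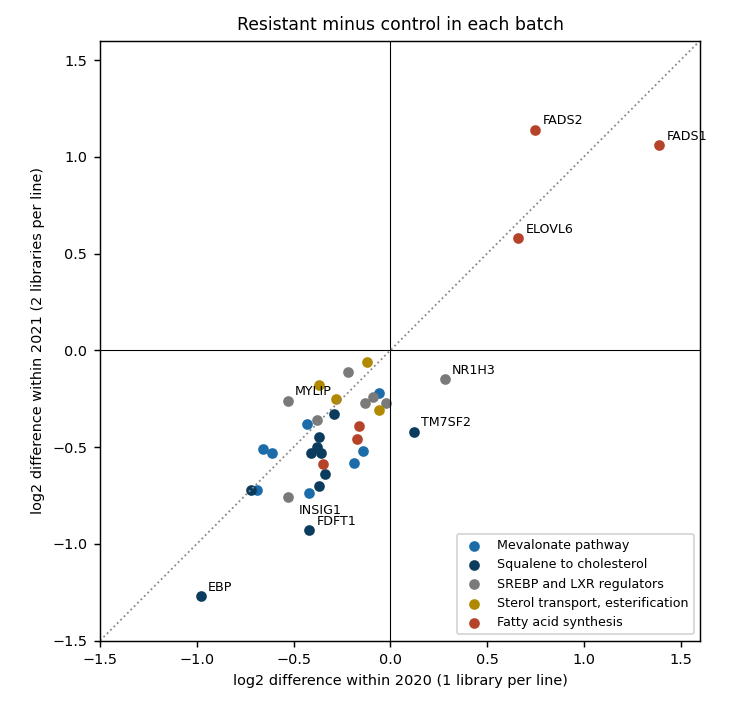
Difference between resistant and control libraries (log2 CPM) within the 2020 batch, 1 library per line, against that within the 2021 batch, 2 libraries per line, for the 37 tested genes, coloured by group. Both axes are linear and the dotted line marks equal values. Most points lie at the lower left, 32 of 37 below 0 on both axes, and FADS1, FADS2 and ELOVL6 in the upper right.

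Some of these genes had neighbours on their chromosome that were lower as well. For 5 of the 37 the median log2 difference of the 20 nearest tested neighbours was below -0.3: EBP (-0.72), MYLIP (-0.56), and GGPS1, NSDHL and TM7SF2 (each -0.31). EBP, GGPS1 and NSDHL are among the 15 that fell. For the other 32 genes the neighbours' median lay between -0.20 and 0.21. Of these 32, 12 fell and 3 rose, beside 5.48% and 6.23% of all tested genes. CYP51A1 fell although the median of its neighbours was 0.21. The part of the surrounding stretch in these differences was not tested.

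Another 64 genes of the pathway were taken in 5 lists by their function. Of the 60 that were tested, 6 fell (10%) and 3 rose (5%), with a median log2 difference of -0.09. Of all tested genes 5.48% were called lower and 6.23% higher. The rises were thus no more frequent than over all genes, and the calls in each list were few. Of 3 tested enzymes that act beside those above in sterol synthesis, 1 fell: LBR, the lamin B receptor, which is also a C-14 sterol reductase, at 201 ± 5.38 CPM in control and 151 ± 14.9 CPM in the resistant line (SD, n = 3; edgeR adjusted p = 0.0425). Of 11 genes that cleave SREBPs or degrade their partners, 1 fell and 2 rose. MBTPS2 on the X chromosome, the protease that makes the second cut in SREBPs, went from 42.6 ± 3.44 to 22.7 ± 4.12 CPM (SD, n = 3; edgeR adjusted p = 0.00242), in a stretch where 15 of its 20 neighbours were called lower. RNF145, a ubiquitin ligase that acts on the sterol sensors, went from 60.3 ± 4.15 to 88.4 ± 8.04 CPM (SD, n = 3; edgeR adjusted p = 0.0107). PAQR3, a Golgi protein that tethers SCAP, rose from 12.5 ± 0.906 to 16.8 ± 1.02 CPM (SD, n = 3; edgeR adjusted p = 0.0452). MBTPS1, the protease of the first cut, had 308 ± 17.5 and 283 ± 8.93 CPM (edgeR adjusted p = 0.486).

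Of 21 further genes of fatty acid and triglyceride synthesis, 2 fell (9.52%) and 1 rose (4.76%), beside 5.48% and 6.23% of all tested genes. MID1IP1, an activator of acetyl-CoA carboxylase encoded on the X chromosome, fell with a log2 difference of -0.81 ± 0.11 (SE; edgeR adjusted p = 0.00293). ELOVL5, the elongase of polyunsaturated fatty acids that works on products of FADS2, fell from 186 ± 14.5 to 113 ± 13.7 CPM (SD, n = 3; edgeR adjusted p = 0.00518), so that it moved opposite to FADS1 and FADS2. The neighbours of these 2 genes had medians of -0.45 and -0.50. FADS3, beside FADS2 on chromosome 11, rose with a log2 difference of 0.59 ± 0.12 (SE; edgeR adjusted p = 0.0136). Among 12 genes that use isoprenoids, PDSS2, which builds the side chain of coenzyme Q, fell with a log2 difference of -0.41 ± 0.10 (SE; edgeR adjusted p = 0.0346). None of 13 tested genes of sterol uptake, movement and oxidation was called.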

How the data were processed

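RNA was captured with exome probes, per the labels' protocols. The authors deposited whole-number counts per gene that are not normalised. Trimmomatic 0.38, STAR 2.7.8a, featureCounts of Subread and the build GRCh38 are named per the submitters' processing notes. How strand and multiply matching reads were handled, and which annotation release was used, is not given in the sources used here, so overlapping genes can exchange reads. Names and positions came from RefSeq (GRCh38.p14), and lengths from GENCODE 29.

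Counts were tested with edgeR 4.0.16 (quasi-likelihood, robust estimation, TMM scaling, filterByExpr by group) in R 4.3.3, with line and batch as terms, 3 residual degrees of freedom and Benjamini-Hochberg adjustment over the 13950 genes kept. Standard errors derive from the F statistic, and CPM are scaled by TMM. The fit was also run on simulated counts drawn independently for each library. Such a run cannot show how dependence between libraries affects the p-values. Library pairs of a group differed by a chi-square of 70 to 215.3 per degree of freedom, far beyond counting noise. Deviations of same-numbered control and resistant libraries from their group means correlated at 0.729, 0.143 and 0.155. Control replicate 2 with resistant replicate 3 correlated at 0.570, and control replicate 3 with resistant replicate 2 at 0.477. Within 2021 the numbers therefore did not mark the closest pairs. A fit with the number as a block was run as an alternative only.

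The genes and lists were chosen with earlier results of these data known. Values in every library are given for up to 6 called genes per group, those with the largest log2 difference, and for the most abundant gene where fewer than 2 were called. Up to 2 lower and 2 higher genes at 1 CPM or more are given per further list. A gene that this rule takes is not reported here. The promoter rule, a difference below 0, called or not, and a match to TCACNCCAC, gave only SREBF2, which was not called, and the others printed were added. Stretches within UTRs of GENCODE 29 were left out of the printed promoters only. Matches were counted over all 250 bases, UTR included. The window of EBP, counted among those with CCAAT, lay wholly within UTR. Alternatives were scaling by upper quartile or by DESeq2 size factors, testing with DESeq2 1.42.0 or limma 3.58.1 voom, no filter or one at a mean of 1 CPM, no batch term, the block, the 2021 batch alone, each library left out and, added after seeing the data, no robust estimation.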

Additional observations from a re-analysis of the deposited data

How the results depend on the processing

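The 15 falls among the 37 tested genes depended most on the batch term and on which libraries were used. With no batch term 3 of the 37 fell and 362 genes were called in all, and in the 2021 libraries alone 9 fell and 1012 were called. Leaving out 1 library gave 5 to 17 falls and 617 to 1985 calls. The falls were 11 to 17 without a control library and 5 to 8 without a resistant one. The count of rises was 2 or 3 in each fit. The replicate block gave 12 falls and 1303 calls, DESeq2 21 falls, the fit with no filter 19. The median log2 difference of the 37 stayed between -0.428 and -0.343. All 18 called genes kept their direction in each of 16 alternatives, and 5 (HMGCS1, EBP, INSIG1, FADS1 and FADS2) kept the call in all 16. NR1H3, not called in any, turned to 0.04 with upper quartile scaling and to 0.02 with a minimum mean of 1 CPM, and ran from -0.15 to 0.13 when 1 library was left out, above 0 without control replicate 2 (0.02), control replicate 3 (0.04) or resistant replicate 3. Over all pairs of a gene and an alternative, a call was lost in 64 and gained in 17. Without a 2020 library, the batch term fits the lone 2020 library left, so the difference rests on the 2021 libraries, 2 of each line. Those fits and that of the 2021 libraries alone are therefore nearly the same comparison, though each counts as an alternative. NPC1L1 and ACACA had too few counts to be tested, and for ACACA the cause was not tested.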
